A study of Homo sapiens with 34 samples.

Results

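In androgen-dependent LNCaP cells, 1410 of the 53638 EZH2 peaks listed for the first chromatin immunoprecipitation (ChIP) replicate overlapped a peak of the second replicate. They are called shared peaks here. The overlap had to be at least 1 bp on chromosomes 1 to 22, so the shared peaks made up 2.63% of the replicate 1 list. They met 1398 of the 12317 peaks of replicate 2, or 11.4% of that list. They were chosen by the presence of a peak in both lists, so their overlap, scores and distances between the EZH2 replicates are given as a description.

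LNCaP is a human prostate cancer cell line that expresses the androgen receptor. The AI groups are the androgen-independent derivative, kept in medium with charcoal-stripped serum, which lacks steroid hormones, and the AD groups are the androgen-dependent cells, kept in RPMI1640. EZH2 ChIP had 1 AI and 2 AD samples, H3K27me3 ChIP had 2 AI and 2 AD samples, and RNA-seq had 2 samples in each of 6 groups. Those groups were AI and AD cells given an EZH2 siRNA (siEZH2) or a mock siRNA (NC) and taken 24 hours after transfection, and AI and AD cells left untreated. RNA immunoprecipitation (RIP) after UV crosslinking had 2 samples with an EZH2 antibody and 2 with IgG in AD cells. Every group is the same line or a derivative of it, the labels do not say whether replicates are separate cultures, and p-values then measure only the spread between these samples. The treatment protocol names LNCaP/abl, an androgen-independent line, for transfection, while the titles also put siRNA libraries under AD, and the titles are followed here.

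EZH2 is the catalytic subunit of Polycomb repressive complex PRC2. It places H3K27me3, trimethylation of a lysine in the tail of histone H3, and domains of this mark cover silent developmental genes, many of them at CpG-rich starts. EZH2 is known to be high in advanced prostate cancer, where a role apart from PRC2, as a partner of transcription factors at active genes, has also been described.

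Of the 33725 promoter windows searched, which run from 250 bases before to 50 after a gene start, 55 were met by a shared peak. These 5 are shown as examples of how such starts combined with the readouts below, from both AD H3K27me3 lists to none. The sequences are from RefSeq on GRCh38.p14, written 5′ to 3′ on the gene's strand, with CG dinucleotides in capitals. PTPN5 (chr11:18791749-18792048, minus strand) encodes a neuronal tyrosine phosphatase, and its peak lay in both AD H3K27me3 lists. TBXT (chr6:166168606-166168905, minus strand) encodes the mesoderm factor brachyury, and its peak also lay in both. EFCC1 (chr3:129001054-129001353, plus strand) had its peak in the first AD H3K27me3 list. GSTO2 (chr10:104274916-104275215, plus strand) encodes a glutathione transferase, and its peak was also in the AI EZH2 list. SCGB3A1 (chr5:180591450-180591749, minus strand) encodes a secretoglobin, and its peak was in none of these lists.
PTPN5: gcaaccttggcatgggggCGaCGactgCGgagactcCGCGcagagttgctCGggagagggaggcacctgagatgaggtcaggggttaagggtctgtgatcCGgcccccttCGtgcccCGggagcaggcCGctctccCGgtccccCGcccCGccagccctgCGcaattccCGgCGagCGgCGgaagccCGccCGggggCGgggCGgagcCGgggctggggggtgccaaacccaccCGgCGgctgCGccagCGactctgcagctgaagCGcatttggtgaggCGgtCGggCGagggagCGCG
TBXT: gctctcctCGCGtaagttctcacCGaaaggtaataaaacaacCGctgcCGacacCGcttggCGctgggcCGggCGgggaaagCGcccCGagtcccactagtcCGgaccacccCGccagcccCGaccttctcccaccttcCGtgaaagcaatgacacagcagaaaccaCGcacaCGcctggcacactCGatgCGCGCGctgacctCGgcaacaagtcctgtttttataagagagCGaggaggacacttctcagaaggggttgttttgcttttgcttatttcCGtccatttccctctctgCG
EFCC1: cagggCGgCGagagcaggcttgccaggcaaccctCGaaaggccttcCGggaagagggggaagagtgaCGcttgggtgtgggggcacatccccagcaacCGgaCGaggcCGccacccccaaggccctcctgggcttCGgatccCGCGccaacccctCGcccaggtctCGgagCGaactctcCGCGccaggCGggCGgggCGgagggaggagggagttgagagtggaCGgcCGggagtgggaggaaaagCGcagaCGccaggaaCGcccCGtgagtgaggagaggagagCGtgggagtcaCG
GSTO2: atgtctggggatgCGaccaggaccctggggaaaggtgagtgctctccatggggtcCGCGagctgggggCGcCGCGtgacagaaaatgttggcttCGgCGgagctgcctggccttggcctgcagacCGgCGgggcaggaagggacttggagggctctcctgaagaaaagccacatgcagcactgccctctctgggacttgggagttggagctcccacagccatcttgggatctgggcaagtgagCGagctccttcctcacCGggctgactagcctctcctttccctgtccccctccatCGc
SCGB3A1: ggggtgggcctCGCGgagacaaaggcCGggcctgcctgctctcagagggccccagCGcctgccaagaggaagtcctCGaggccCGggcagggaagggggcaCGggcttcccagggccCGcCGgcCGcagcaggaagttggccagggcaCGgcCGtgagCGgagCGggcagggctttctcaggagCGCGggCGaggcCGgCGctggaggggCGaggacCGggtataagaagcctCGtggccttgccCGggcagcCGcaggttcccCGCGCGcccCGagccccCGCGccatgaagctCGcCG

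The windows held 33, 25, 27, 13 and 32 CG dinucleotides in the order printed. CG reads the same on both strands, so one search covers both. At least 1 CG stood in 100% of the 55 windows met by a shared peak and in 96% of all 33725 windows, with a median of 20 and 14 CG per window. The median G and C content was 66% in windows met by a shared peak, 63.3% in the 1225 met by another replicate 1 peak and 58.7% in all windows. These windows held rather more CG than promoters at large, but the share with 15 or more CG was 52.7%, against 53.5% for windows met by other replicate 1 peaks and 49% for all.

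The EZH2 lists had little in common with each other. The first AD replicate covered 1.006% of the positions up to the last listed coordinate of each chromosome, the second 0.1979% and the AI list, with 11852 peaks, 0.1914%. The same cells' H3K27me3 lists overlapped in 47.6% of AD replicate 1 peaks and 75.4% of AD replicate 2 peaks. Those lists covered far more, 7.929% and 6.373%, with 122813 and 72027 peaks of median width 1311 and 1833 bp. The median width was 503 and 441 bp in the AD EZH2 lists. Overlap is easier between large lists of wide peaks, so these shares do not compare replicate agreement on equal terms. Of the AI peaks, 7.86% met AD replicate 1 and 1.73% met AD replicate 2. The depth behind the peaks is unknown, since the lists hold no read counts.

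Shared peaks shared a median of 340 bp with replicate 2, and 16 of them (1.13%) shared 10 bp or less. Their median width was 572 bp, against 501 bp for the 52228 unshared replicate 1 peaks. The authors' peak score, a value of the peak caller within this list, had a median of 72.0 in shared peaks and 62.6 in unshared ones. Shared peaks were 1.78% of replicate 1 peaks that scored 50 to 60, 5.11% of those from 100 to 150 and 15.4% of those at 200 or more. Peaks with a stronger score in replicate 1 were thus more often among the shared ones. They were also wider, with medians of 881 bp (shared) and 780 bp (unshared) at a score of 100 or more. A wide peak meets a 1 bp rule more easily, and the part of width was not tested.

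The rule's edge was not sharp. The smallest overlaps, 1 bp, were in KCNC4 (chr1:110211899-110212331), a potassium channel gene, and in FLII (chr17:18246697-18247310), an actin regulator. On the other side, 21 unshared peaks missed a replicate 2 peak by 10 bp or less and 1722 lay within 1 kb of one. Within 250 bp of their nearest replicate 2 peak, centre to centre, lay 839 replicate 1 peaks, 2.50 times the mean of 335 for bins from 1 to 5 kb. The same ratio was 2.22 for replicate 1 against the AI list and 2.36 for replicate 2 against the AI list. So a surplus of peaks at matching positions, on top of a broad neighbourhood of near ones, was present in each pair of lists, including the pairs from different cells.

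**Figure D1:**
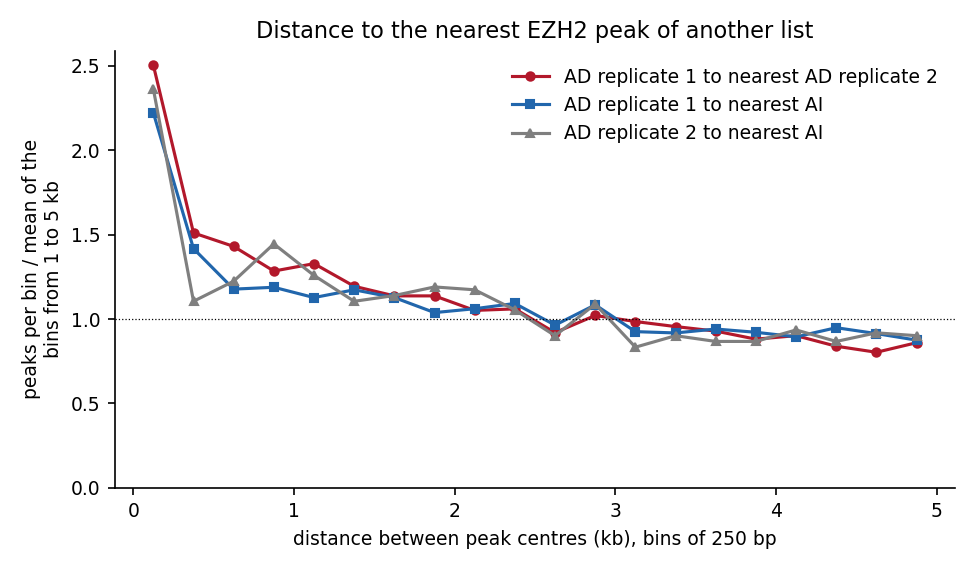
Distance between the centres of peaks and the nearest peak of another EZH2 list (x axis, kb, bins of 250 bp) against the number of peaks per bin divided by the mean of the bins from 1 to 5 kb (y axis), with one line for each pair of lists. The first bin stood at 2.50 for the AD replicates, 2.22 for AD replicate 1 with AI and 2.36 for AD replicate 2 with AI.

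The best scored shared peak (chr22:12692590-12694184, score 501.07) lay in no annotated gene and in both AD H3K27me3 lists. The next (chr17:21295308-21299007, score 428.77) lay in MAP2K3, a stress kinase gene, with the longest stretch shared with replicate 2, 2323 bp, and in no AD H3K27me3 list. MAP2K3 held 5 shared peaks in 30.53 kb, or 16.4 per 100 kb, and only 3 other replicate 1 peaks. This gene has near-identical copies elsewhere in the genome, so the placing of reads in it is uncertain. The placing of reads at the best scored peak was not tested either. Its score and its overlap with both AD H3K27me3 lists therefore describe the lists only. Others at the top of the score were in TRIM11 (chr1:228398702-228401287, score 314.25), a ubiquitin ligase gene, and in UNC5A (chr5:176854552-176856225, score 272.03), a netrin receptor gene. The peak in UNC5A lay in the second AD H3K27me3 list, and that in TRIM11 in neither.

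Shared peaks lay in genes more often than unshared ones. In protein-coding genes were 996 (70.6%, exact 95% binomial interval 68.2 to 73.0) of the shared peaks and 56.6% of the unshared peaks. In no annotated gene were 312 shared peaks (22.1%), against 32.6% of the unshared. A further 91 shared peaks (6.45%) lay in a long noncoding RNA gene and in no protein-coding one, against 9.82% of the unshared. Intervals here cover counting error only, and neighbouring peaks are not independent.

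Shared peaks also stood nearer to gene starts. Of the 1322 shared peaks off chromosome 8, for which starts were used, 108 (8.17%, 6.75 to 9.78) lay within 1 kb of a start, against 5.48% of unshared peaks. Within 5 kb were 26.0% of the shared and 17.1% of the unshared. Among peaks that scored 100 or more, 11.6% (8.27 to 15.7) of the shared and 9.54% of the unshared lay within 1 kb. Within 5 kb those shares were 30.3% (25.3 to 35.8) and 23.9%. The median distance to a start was 14320 bp for shared peaks and 23782 bp for unshared peaks. Most shared peaks were therefore in gene bodies, away from the starts used. Of 19126 protein-coding genes, 15101 had a start among these, so a peak at another gene's start can count as distant. The peak in PTF1A, for example, was measured to a start of MSRB2, 96086 bp away.

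Within the protein-coding gene that held them, 744 shared peaks leaned to the far end. A peak in several genes was placed in the longest. Only genes with a start among those used, and peaks centred in them, were counted. From the fifth of the gene nearest the start to the fifth nearest the end, the shares were 14.2, 15.5, 17.1, 21.6 and 31.6% of shared peaks, against 18.1, 17.2, 18.5, 21.4 and 24.8% of unshared peaks. Exons and introns are not given, because the annotation used has gene spans only.

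Chromosome 19 held 149 shared peaks, or 2.54 per Mb, and chromosome 17 held 133, or 1.60 per Mb. Chromosome 13 held 1 (0.00874 per Mb) and chromosome 2 held 11 (0.0454 per Mb). Chromosomes 16 and 22 were also low, with 12 (0.133 per Mb) and 11 (0.217 per Mb). No account was taken of chromosome copy number here. All replicate 1 peaks were spread the same way but less steeply, with 49.7 per Mb on chromosome 19 and 4.72 on chromosome 13, and so were replicate 2 peaks, with 10.3 and 1.18. As a share of replicate 1 peaks, shared peaks were 5.12% on chromosome 19 and 0.185% on chromosome 13. Near chromosome ends, within 5 Mb, stood 31.7% of shared peaks and 19.2% of unshared peaks.

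**Figure D2:**
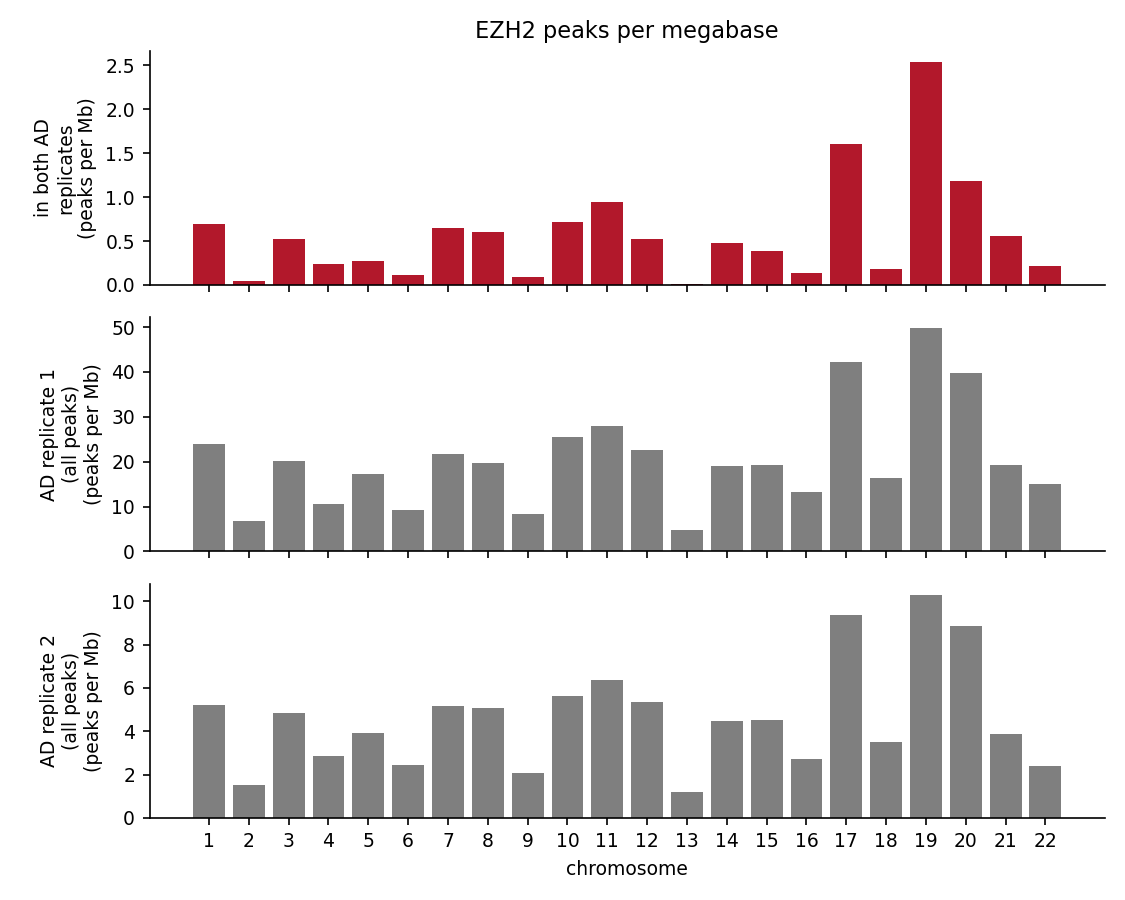
Peaks per megabase (y axes) on chromosomes 1 to 22 (x axis) for shared peaks, all AD replicate 1 peaks and all AD replicate 2 peaks. Chromosomes 19 and 17 stand highest in the shared set at 2.54 and 1.60 per Mb, and chromosome 13 lowest at 0.00874.

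The unshared peaks with a replicate 2 peak within 1 kb had much the same setting as the shared ones. Of these 1722 peaks, 69.1% lay in a protein-coding gene, 24.4% in no gene and 31.1% within 5 Mb of a chromosome end. Of the 1631 with start data, 7.54% lay within 1 kb of a start. The location of the shared peaks was thus close to that of near neighbours that the 1 bp rule left out. These neighbours met the AI EZH2 list in 4.18% and both AD H3K27me3 lists in 12.5%.

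Most shared peaks met no H3K27me3 peak. In AD cells, 156 shared peaks (11.1%, 9.47 to 12.8) met a peak in both H3K27me3 lists, against 12.1% of unshared peaks (11.8 to 12.4). A further 201 (14.3%) met a peak in 1 list, against 13.2% of the unshared. The remaining 1053 (74.7%) met neither, and so did 74.7% of the unshared. A replicate 2 peak at the same place therefore went with no higher share of the mark within these intervals.

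The single H3K27me3 lists gave 198 shared peaks (14.0%, 12.3 to 16.0) in AD replicate 1, against 16.4% of unshared peaks, and 315 (22.3%, 20.2 to 24.6) in AD replicate 2, against 20.9%. For the first list the interval lay below the share of unshared peaks, and for the second it included that share. In AI cells, 120 shared peaks (8.51%) met both H3K27me3 lists, against 8.77% of unshared ones, and 72 (5.11%) met all 4 lists of AI and AD, against 5.70%. Taken singly, the second AI list held 274 shared peaks (19.4%), against 14.6% of the unshared, and the first held 13.0%, against 14.7%. Among peaks that scored 100 or more, the second AI list held 22.8% (18.5 to 27.7) of the shared and 20.4% of the unshared. The first AI list held 9.79% (6.84 to 13.5) and 14.6% of these.

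The H3K27me3 peaks that shared peaks met were wide. Their median width was 5251 bp in AD replicate 1 and 5958 bp in replicate 2, against 3068 and 3516 bp for those that unshared peaks met and 1311 and 1833 bp for all peaks of those lists. A wide peak is also easier to meet than a narrow one.

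Where the shared peaks lay went with the mark. Of the 312 outside annotated genes, 69 (22.1%, 17.6 to 27.1) met both AD H3K27me3 lists, against 16.0% of unshared peaks outside genes. Of the 996 in protein-coding genes, 70 (7.03%) did, against 9.20% of the unshared. Within 1 kb of a start, 19 of 108 (17.6%, 10.9 to 26.1) met both lists, against 13.9% of unshared peaks at that distance. On chromosome 19, where shared peaks were densest, 8 of 149 (5.37%) met both, against 8.87%. Shared peaks outside genes and at starts thus met the mark more often than those in protein-coding genes, where most of them lie.

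**Figure D3:**
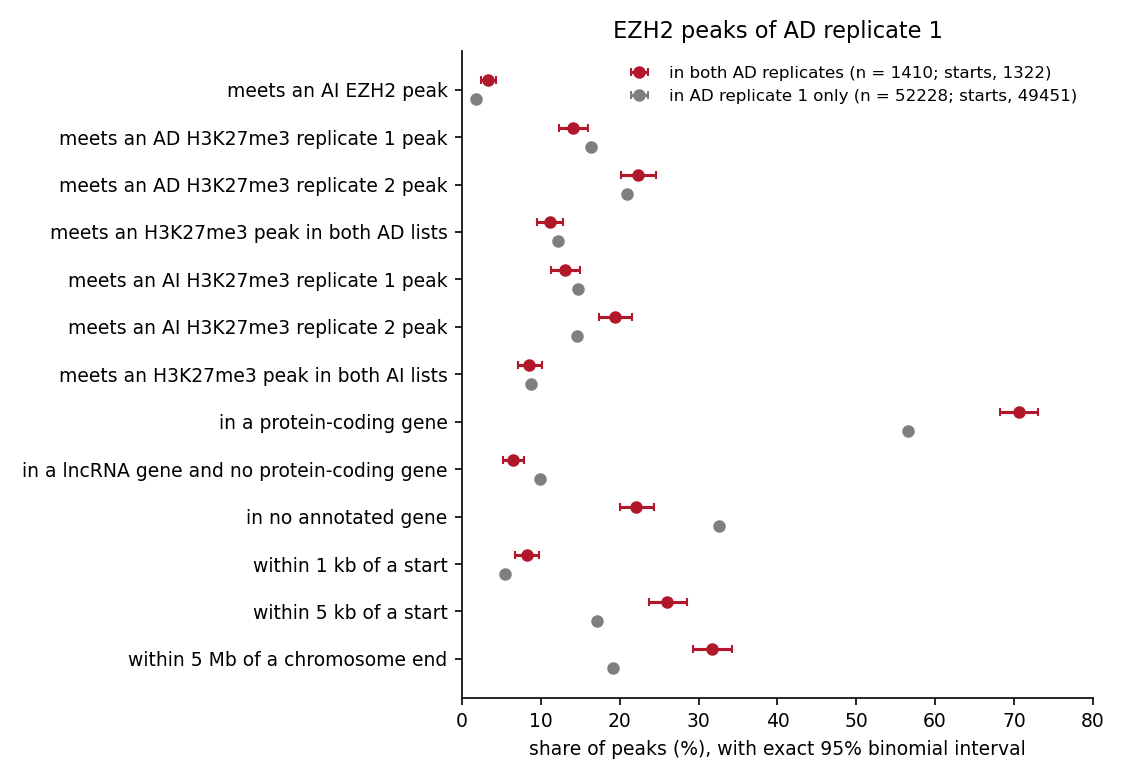
Share of peaks in percent (x axis) with each property (rows) for the EZH2 peaks found in both AD replicates and those in AD replicate 1 only, with exact 95% binomial intervals. Shared peaks stand apart in genes (70.6% against 56.6%), at starts and near chromosome ends, and differ little in the share in both AD H3K27me3 lists (11.1% against 12.1%).

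In the single AI EZH2 list, 46 shared peaks (3.26%, 2.40 to 4.33) met a peak, against 900 unshared peaks (1.72%, 1.61 to 1.84). Among peaks that scored 100 or more, the shares were 4.15% and 3.52%. They shared a median of 370 bp with the AI peak, 37 lay in a protein-coding gene and 8 in no gene. With 1 AI sample, no replicate check of that list was possible. A peak missing from it may also be a weak signal, since its depth is unknown.

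Of these 46, 2 lay in RASSF1, which encodes a tumour suppressor of the RAS pathway, with the better scored at chr3:50331091-50332073 (score 165.76). Others lay in PIF1 (chr15:64823502-64824545), a DNA helicase gene, in CHERP (chr19:16530683-16531912), an endoplasmic reticulum protein gene, and in TNS3 (chr7:47329173-47330098), a tensin gene of focal adhesions. One stood 1465 bp from the start of SHH, the sonic hedgehog ligand (chr7:155813928-155814558), in the first AD H3K27me3 list.

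Only 4 of 46 (8.7%) met both AD H3K27me3 lists as well, and they are the 4 shared peaks in every one of the EZH2 and AD H3K27me3 lists. One was in CDH4 (chr20:61733829-61734259), a cadherin gene. The others, at chr17:52387247-52387850, chr5:130555558-130556229 and chr20:48167484-48168110, lay in no annotated gene.

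The shared peaks lay in 1038 genes, 860 protein-coding and 178 for long noncoding RNA. Of these genes, 898 held 1 shared peak, 114 held 2 and 26 held 3 or more. RBFOX3, a neuronal splicing regulator with a span of 576.2 kb, held 12, beside 86 other replicate 1 peaks, and 6 of the 12 met an AD H3K27me3 peak. CDH4 held 6, and so did PRDM16, which encodes a transcription factor of brown fat and blood stem cells. SORCS2, a sorting receptor gene, held 4, of which all 4 met an AD H3K27me3 peak and 2 met both lists.

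Among genes of the Polycomb system, 1 of 12 PRC2 genes held a shared peak, and this was EZH2 itself. Its peak (chr7:148807829-148808649, score 60.52) lay 74836 bp from the start, in no H3K27me3 list and not in the AI EZH2 list. Of 20 PRC1 genes 1 held a shared peak, PCGF3, which encodes a RING finger subunit, with 2. Of 13 genes for enzymes that write or erase methylation at lysine 27 or lysine 36 of histone H3, 4 (30.8%) held one. These were EZH2, KDM6B, KDM2A and KDM4B, the last with 3 beside 26 other replicate 1 peaks. All 13 held a replicate 1 peak, shared or not, while 9502 of all 19126 protein-coding genes did. None of the 16 genes reported as silenced by EZH2 held one, and 2 of 24 androgen-induced genes did, TMPRSS2 and CAMKK2. Among all protein-coding genes, 860 of 19126 (4.5%) held one.

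Developmental regulators known as Polycomb targets held shared peaks at about that share, 7 of 164 (4.27%). PAX6, the eye factor, had its peak (chr11:31811302-31811699) in both AD H3K27me3 lists, as did WNT1, a signalling ligand (chr12:48981211-48981792). PTF1A, of the pancreas, had its peak (chr10:23191665-23192965, score 253.74) in the first list. LHX4 held 2, of which 1 met the second list. The peaks in TBX2, GATA3 and ZIC4 met neither AD list. Of these, the peak in GATA3 met the second AI H3K27me3 list and that in ZIC4 met both AI lists. These lists are short, and their counts are descriptions.

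RNA levels of the genes that hold shared peaks were read from 2 untreated AD libraries as the authors' RPKM, reads scaled by gene length and library size. Depth is unknown in these files. The 10 luminal prostate markers were all at 1 RPKM or more in both libraries, with KLK3, the gene of prostate-specific antigen, at 5055 and 3469 RPKM. Of 4 basal markers, KRT5 and TP63 were listed at 0 and 1 was at 1 RPKM or more, KRT14, at 3.73 and 4.56 RPKM. Of 3 blood and endothelial markers, PTPRC and PECAM1 were listed at 0 and VWF had 3.53 and 3.28 RPKM.

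Protein-coding genes with a shared peak had a higher RNA level than others. The median was 4.13 RPKM over the 800 matched genes, 1.98 RPKM over 7735 genes with other replicate 1 peaks and 2.03 RPKM over 7097 with none. At 1 RPKM or more were 63.5%, 57.5% and 58.2% of these classes. The 2 AD libraries gave medians of 4.00 and 4.13 RPKM for genes with a shared peak. Genes with a replicate 2 peak within 1 kb of a replicate 1 peak and no shared peak had a median of 4.04 RPKM (n = 585), close to that of genes with a shared peak.

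The difference in medians was present in all but the longest genes. In 4 bands of span, from the shortest to the longest genes, the medians for genes with a shared peak were 6.29, 7.14, 5.59 and 0.85 RPKM. For genes with other replicate 1 peaks they were 2.13, 3.76, 3.06 and 1.04 RPKM, and for genes with no peak 1.76, 2.59, 2.16 and 1.41. Among the longest genes the order of the medians was turned round, and genes with a shared peak were lowest. Yet 19.9% of these were at 10 RPKM or more, against 12% of the longest genes with other replicate 1 peaks and 11.5% with none.

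H3K27me3 split the genes with shared peaks sharply. The 60 whose shared peak met both AD H3K27me3 lists had a median of 0.01 RPKM, and 5 (8.33%) were at 1 RPKM or more. The 80 with a peak in 1 list had a median of 0.02 RPKM, and 17.5% were at 1 RPKM or more. The 660 with no shared peak in either list had a median of 6.28 RPKM, and 74.1% were at 1 RPKM or more. Genes with other replicate 1 peaks fell into the same pattern, with medians of 0.01, 0.03 and 3.51 RPKM for both, 1 and neither list.

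The level also differed with position. The 73 genes with a shared peak within 1 kb of a start had a median of 0.10 RPKM, against 5.71 RPKM for the 533 whose shared peaks all lay farther away. The 35 genes whose shared peak was in the AI EZH2 list had a median of 7.83 RPKM. At the low end, PTPN5 and TBXT were listed at 0 in both AD libraries. At the high end, ENO1, an enzyme of glycolysis, had 4123 and 2845 RPKM in the 2 AD libraries, and GAPDH, another, had 1508 and 1558 RPKM.

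**Figure D4:**
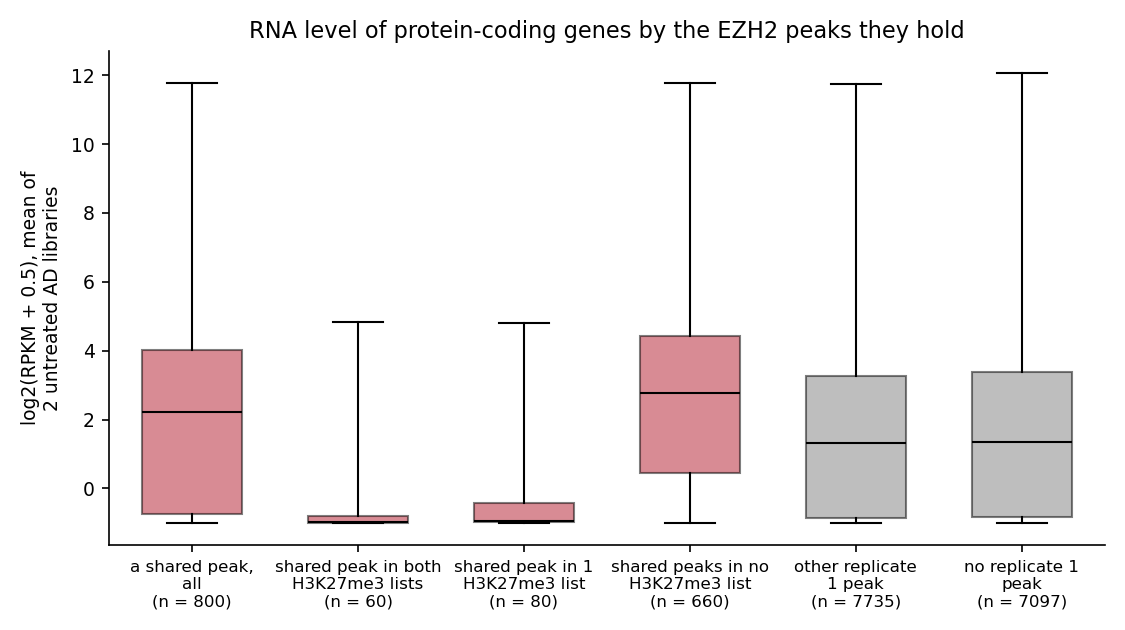
RNA level in untreated AD cells, log2(RPKM + 0.5) as the mean of 2 libraries (y axis), for protein-coding genes by the EZH2 peaks they hold (x axis). Boxes show quartiles, lines medians and whiskers the lowest and highest gene. Genes whose shared peak met both H3K27me3 lists (n = 60) sit at the bottom, and those whose shared peaks met none (n = 660) stand highest.

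The comparison of untreated AI with untreated AD cells asks how these genes differ in the androgen-independent state. EZH2 itself had 10.11 and 12.62 RPKM in AI cells and 5.21 and 6.94 RPKM in AD cells. That is a log2 difference of 0.86 (SE 0.18, limma adjusted p = 0.0061) of log2(RPKM + 0.5), a measure that compresses differences between low values, and all p-values are adjusted by Benjamini-Hochberg over all genes tested. The call was lost when the fit held only these 2 groups. In bulk RNA, fewer cells of a type and less RNA per cell cannot be told apart.

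Of the 602 genes with a shared peak that passed the filter on low values, 74 were higher and 153 lower in AI cells at an adjusted p under 0.05 (limma). That is 12.3% higher and 25.4% lower, where 34.6% of all 14227 genes tested were called, 22.2% higher and 12.4% lower. The median log2 difference was -0.09 for genes with a shared peak and 0.13 for all genes. Genes with other replicate 1 peaks had 21.8% higher and 16.3% lower. Genes with a shared peak thus leaned to lower RNA in AI cells, where all genes leaned to higher. Genes with near neighbours and no shared peak lay in between, with 80 higher and 81 lower of 427. With quantile scaling the split among genes with a shared peak was 50 higher and 192 lower (all genes 2336 and 2291), and with TMM scaling 42 and 200 (all genes 2080 and 2416). Under these the medians were -0.24 and -0.25 for genes with a shared peak, and 0.03 and 0 for all genes. Without AI replicate 1 the medians were -0.188 for genes with a shared peak and 0.0711 for all genes, and without AI replicate 2 they were -0.0589 and 0.181. With only the 2 groups in the fit, 13 were higher and 61 lower of 550 genes with a shared peak, where 13.9% of all genes were called, 1041 higher and 717 lower.

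H3K27me3 at the shared peak left few genes to test, since most of these genes were below the filter. Where the peak met both AD lists, 14 genes were tested, of which 1 was higher and 2 lower in AI cells. Where it met neither, 559 were tested, of which 69 were higher and 146 lower. Most of the genes tested, and so most of those called, had shared peaks with no H3K27me3 in AD cells.

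Among the rises was CBLN2, which encodes a secreted organiser of synapses. It had 70.6 and 55.77 RPKM in AI cells and 5.57 and 5.22 RPKM in AD cells, a log2 difference of 3.42 (SE 0.15, adjusted p = 6.64e-07). The groups lay far apart, and its shared peak (chr18:72541646-72542224) met the first AD H3K27me3 list. HMX1, a homeobox factor, had 2.22 and 1.98 RPKM in AI cells, against 0.05 and 0.02 RPKM in AD cells. EFCC1, whose start sequence is printed above, had 8.49 and 5.00 RPKM in AI cells, against 2.80 and 1.84 RPKM in AD cells, a log2 difference of 1.34, and the call was lost when only these 2 groups were fitted. The groups did not overlap in either gene.

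Also among the largest rises were KMT2C, CSTF3 and YWHAZ. KMT2C, which encodes a histone methyltransferase of enhancers, had 5.40 and 5.12 RPKM in AI cells, against 2.04 and 2.21 RPKM in AD cells, a log2 difference of 1.13. CSTF3, a subunit of the complex that cleaves the ends of messenger RNAs, had 26.21 and 30.16 RPKM in AI cells, against 12.27 and 15.54 RPKM in AD cells. YWHAZ, an adaptor protein that binds phosphorylated partners, had 38.62 and 39.12 RPKM in AI cells, against 14.33 and 17.42 RPKM in AD cells. In all 3 genes both AI libraries stood above both AD libraries. OPLAH and NBN, a metabolic enzyme and a DNA repair protein, were also called higher, but both calls were lost with only the 2 groups in the fit, and that of OPLAH also without AI replicate 1 and that of NBN without AD replicate 1 or AI replicate 2.

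The falls were larger. SMO, the signal transducer of the hedgehog pathway, was listed at 0 in both AI libraries and had 7.43 and 7.80 RPKM in AD cells (adjusted p = 1.36e-07). MYOD1, the muscle factor, was also listed at 0 in both AI libraries and had 3.12 and 5.06 RPKM in AD cells. Its shared peak (chr11:17720228-17720658) met both AD H3K27me3 lists. ARHGEF25 had 0.81 and 0.89 RPKM in AI cells, against 12.25 and 10.77 RPKM in AD cells, a log2 difference of -3.15 (SE 0.13). PPFIA4, a liprin of synapses that held 3 shared peaks, had 0.06 and 0.08 RPKM in AI cells, against 4.02 and 3.97 RPKM in AD cells.

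ADRA2A, an adrenergic receptor with a shared peak 38 bp from its start, had 3.17 and 3.57 RPKM in AI cells, against 24.65 and 30.60 RPKM in AD cells. That peak (chr10:111077067-111077459) met the second AD H3K27me3 list. PLOD1, which modifies collagen, had 56.54 and 45.81 RPKM in AI cells, against 313.6 and 277.1 RPKM in AD cells, a log2 difference of -2.52. ZNF395, a zinc finger factor, had 4.99 and 4.82 RPKM in AI cells, against 26.60 and 28.31 RPKM in AD cells. GPRIN2 had 0.22 and 0.50 RPKM in AI cells, against 3.68 and 3.35 RPKM in AD cells. In these genes, too, every AI library was below every AD library.

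**Figure D5:**
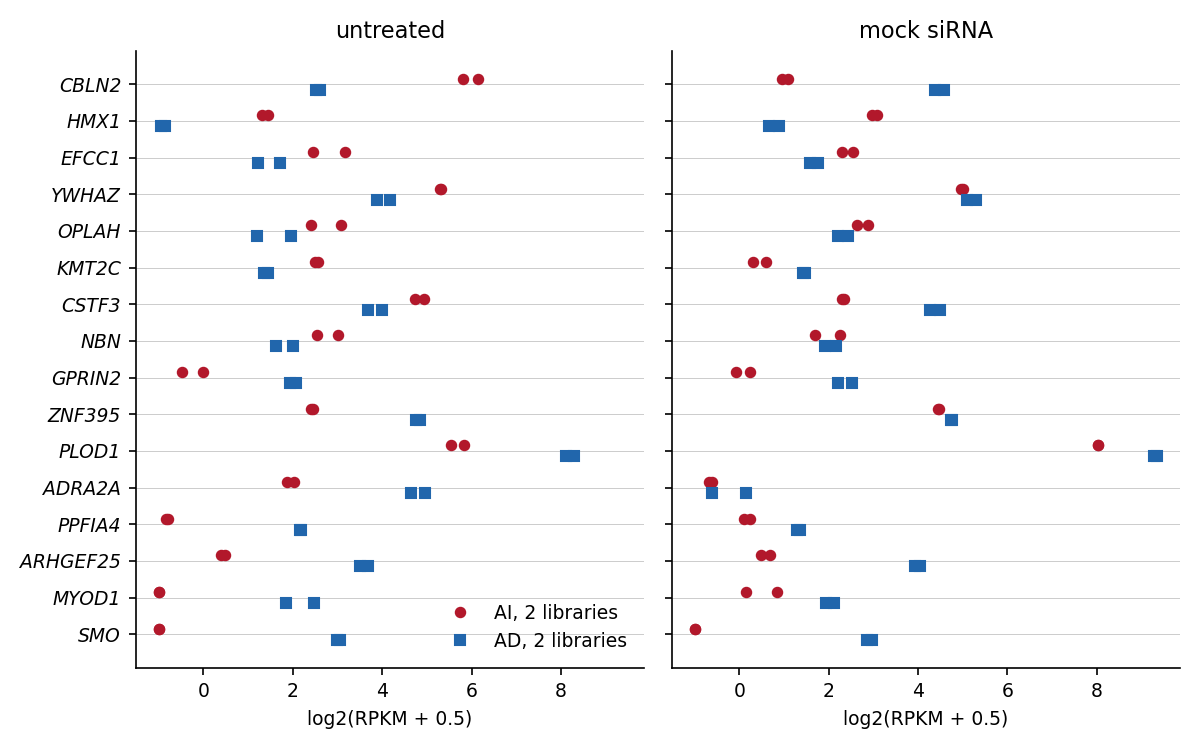
RNA level as log2(RPKM + 0.5) (x axes) of the 16 genes with a shared peak named for the untreated comparison (rows), each library a point, AI as circles and AD as squares, untreated on the left and mock-transfected on the right. SMO is at the bottom of the scale in AI cells in both panels, and CBLN2 lies higher in untreated AI cells but lower in mock-transfected AI cells than in AD cells.

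Among the listed chromatin genes with a shared peak, 3 were lower in AI cells and EZH2 was higher. KDM4B, a histone demethylase, had 10.27 and 9.32 RPKM in AI cells, against 20.76 and 22.02 RPKM in AD cells (log2 difference -1.09, adjusted p = 5.60e-05). PCGF3 had 11.57 and 11.31 RPKM in AI cells, against 17.66 and 17.57 RPKM in AD cells (-0.60, adjusted p = 0.0010). KDM6B, which removes H3K27me3, differed by -0.78 on the log2 scale (adjusted p = 0.0017), and KDM2A by -0.29, which did not pass (adjusted p = 0.17). TMPRSS2, an androgen-induced protease, had 160.3 and 127.4 RPKM in AI cells, against 350.8 and 336.8 RPKM in AD cells (-1.26, adjusted p = 6.22e-05). MAP2K3 went the other way, with 26.07 and 21.06 RPKM in AI cells, against 13.70 and 13.09 RPKM in AD cells (0.78, adjusted p = 0.0012). With only the 2 groups in the fit, the calls of PCGF3, KDM6B and MAP2K3 were lost.

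The same question can be put to mock-transfected cells, where the lean was stronger but the background leaned with it. Of the 602 genes, 40 were higher and 381 lower in AI mock cells, or 6.64% and 63.3%, where 55.7% of all genes were called, 12.2% higher and 43.5% lower. The median log2 difference was -0.70 for genes with a shared peak and -0.41 for all genes. Near neighbours gave 8.43% higher and 61.8% lower. With quantile scaling the split was 78 higher and 250 lower (all genes 3440 and 3522, medians -0.30 and 0.02), and with TMM scaling 110 and 258 (all genes 3614 and 4028, medians -0.27 and -0.03). EZH2 had 7.07 and 5.44 RPKM in AI mock cells and 10.95 and 12.48 RPKM in AD mock cells (log2 difference -0.86, adjusted p = 0.0029), against the direction in untreated cells, and that call was lost with quantile and with TMM scaling.

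Some named genes kept their direction in mock cells. SMO was listed at 0 in both AI libraries, against 7.38 and 6.70 RPKM in AD cells, and ARHGEF25 had 1.10 and 0.90 RPKM in AI cells, against 16.07 and 14.76 RPKM in AD cells. HMX1 was again higher, at 7.29 and 8.03 RPKM in AI cells, against 1.36 and 1.09 RPKM in AD cells. CBLN2 turned round, with 1.45 and 1.63 RPKM in AI mock cells, against 20.38 and 23.54 RPKM in AD mock cells (log2 difference -3.46). The untreated and mock libraries share no samples, and the direction of CBLN2 depended on which were compared.

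Other genes with a shared peak were called in mock cells by a wide margin. FASN, the fatty acid synthase, had 547.5 and 518.8 RPKM in AI cells, against 174.5 and 170.9 RPKM in AD cells (log2 difference 1.62). MAP3K14, a kinase of the NF-kB pathway, had 34.16 and 32.29 RPKM in AI cells, against 10.19 and 8.70 RPKM in AD cells. OVOL1, a factor of epithelial differentiation, had 25.25 and 27.71 RPKM in AI cells, against 6.47 and 7.24 RPKM in AD cells. HOXB7 had 1.55 and 2.06 RPKM in AI cells, against 0.30 and 0.12 RPKM in AD cells. Lower in AI cells were NCOA5, a coactivator of nuclear receptors, at 0.90 and 1.14 RPKM, against 12.98 and 11.87 RPKM in AD cells, and PLXNA1, a semaphorin receptor, at 0.95 and 0.92 RPKM, against 9.30 and 9.29 RPKM in AD cells. PLA2G4A, a phospholipase, and SPACA6 were listed at 0 in both AI mock libraries, against 3.09 and 3.82 RPKM and against 3.93 and 2.67 RPKM in AD mock cells. The groups did not overlap in any of these.

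The siRNA libraries ask whether genes under shared peaks change when EZH2 is targeted. In AI cells EZH2 had 3.60 and 4.33 RPKM with siEZH2 and 7.07 and 5.44 RPKM with the mock (log2 difference -0.59, adjusted p = 0.126), and in AD cells 11.52 and 10.73 RPKM with siEZH2 and 10.95 and 12.48 RPKM with the mock (-0.07, adjusted p = 1). The knockdown of the target thus did not pass the test in either, and in AD cells the 2 groups overlapped.

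In AD cells, where the shared peaks were found, none of the 602 genes was called by limma and 2 of all genes were (0.0141%). At an unadjusted p under 0.05 were 19 of the 602 and 544 of all genes. In AI cells 3 of the 602 genes (0.498%) were called, all lower with siEZH2, where 1.46% of all genes were called, 0.0703% higher and 1.39% lower. CBLN2 had 0.53 and 0.71 RPKM with siEZH2, against 1.45 and 1.63 RPKM with the mock (log2 difference -0.87, adjusted p = 0.036). PATJ, a protein of epithelial junctions whose gene also held a shared peak in the AI EZH2 list, had 6.83 and 6.91 RPKM, against 11.50 and 10.82 RPKM (adjusted p = 0.040). HSPA4, a chaperone, had 19.57 and 21.75 RPKM, against 30.56 and 32.10 RPKM (adjusted p = 0.049). The median log2 difference was 0.112 for genes with a shared peak and -0.0454 for all genes. With only the 2 groups in the fit, 26 were higher and 8 lower of 523, where 10.5% of all genes were called, 269 higher and 935 lower. All 3 calls were lost when any 1 library of either group was left out and with quantile or TMM scaling.

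RIP shows which RNAs came down with EZH2 in AD cells. Of 567 tested genes with a shared peak, none was called against IgG, as was the case for all 13667 genes (0%), and the smallest adjusted p among the 567 was 0.322 (limma). At an unadjusted p under 0.05 were 101 of the 567 and 1383 of all genes. The median log2 difference of EZH2 RIP over IgG was 0.85 for genes with a shared peak, 0.83 for genes with near neighbours only and 0.43 for all genes. Single libraries moved these medians widely. For genes with a shared peak and for all genes they were 1.16 and 0.609 without EZH2 RIP replicate 1, 0.452 and 0.214 without EZH2 RIP replicate 2, 0.397 and 0.00943 without IgG replicate 1, and 1.35 and 0.924 without IgG replicate 2. Quantile scaling gave 0.291 and -0.0403. EZH2 RNA had 23.28 and 16.21 RPKM in EZH2 RIP and 10.54 and 4.40 RPKM in IgG (log2 difference 1.44, adjusted p = 0.66).

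Values of genes that overlap one another are uncertain, because the sources used here do not say whether strand was used in counting. The labels give no batch or date for these libraries, so a batch that follows the AI and AD groups cannot be told apart from them.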

How the data were processed

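EZH2 and H3K27me3 ChIP, RNA-seq and RIP libraries of LNCaP cells were used, and the ChIP inputs were not used here. Per the submitters' processing notes, reads were aligned to GRCh38 after cutadapt with Bowtie2 (ChIP) or TopHat2 (RNA), with edgeR for RNA, and RIP used TopHat2 and edgeR. Tool versions and the peak caller's settings are not given in the sources at hand. The authors deposited 1 peak list per ChIP sample with a score per peak, and that score is theirs and is used only within its list. The authors deposited RNA and RIP values as RPKM per gene. These carry no read counts, so depth is unknown and no count test was run. The labels name the groups, and all 34 samples were mapped.

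Peaks were intersected at 1 bp or more (Python 3.11.15, pandas 2.3.3). Genes and starts are from RefSeq, GRCh38.p14. Starts were used for 15101 of 19126 protein-coding genes, and none on chromosome 8. Of the RNA identifiers, 18489 matched 1 RefSeq gene, and 852 of the 1038 genes that hold a shared peak were matched in RNA and 816 in RIP. RPKM was tested as log2(RPKM + 0.5) with limma 3.58.1 (trend) in R 4.3.3, with genes at 0.5 RPKM or more in at least 2 libraries, a coefficient per group over all 12 RNA or 8 RIP libraries and Benjamini-Hochberg adjustment at 0.05. The script was tested on simulated data. Named genes are the 8 largest rises and 8 largest falls per RNA comparison among called genes with a mean of at least 1 RPKM over the libraries compared, with the listed genes, the best scored peaks and those at the rule's edge. The promoters printed and the peaks named from the AI EZH2 list were chosen after their values were seen. The shared peaks and the gene lists were chosen with earlier results of these data known. Alternatives were other overlaps, scores, pseudocounts, filters and scalings, a fit of only the 2 groups, a replicate block and each library left out.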

Additional observations from a re-analysis of the deposited data

Results flagged for a closer look

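The difference between AI and AD cells was itself different in untreated and in mock-transfected cells for many genes. By limma's test of that difference at an adjusted p under 0.05, this held for 347 of the 602 tested genes with a shared peak (57.6%) and for 7139 of all 14227 (50.2%). Each value below is the log2 difference of AI from AD in untreated cells minus that in mock-transfected cells, on the log2(RPKM + 0.5) scale, and each passed that test. These values carry no scaling between libraries beyond RPKM, and those under quantile or TMM scaling are not given here. Over all genes the median log2 difference of AI from AD was 0.13 in untreated and -0.41 in mock cells. Genes at large thus leaned towards positive values. No cause was tested.

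For EZH2 itself AI was above AD in untreated cells and below AD in mock cells. That mock call was lost with quantile and with TMM scaling. The value in EZH2 was 1.72. Among the listed genes it was 1.55 in CAMKK2, 1.52 in LHX4 and 0.944 in KDM2A, which were called lower in AI mock cells and were not called in untreated cells, and 1.04 in TMPRSS2, which was lower in both. It was -0.905 in KDM4B, -0.729 in KDM6B and -0.602 in PCGF3, which were called lower in untreated AI cells and were not called in mock cells. MAP2K3 gave 1.59, with opposite directions called in untreated and mock cells.

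CBLN2 stood out at 6.88, with AI above AD in untreated cells and below AD in mock cells. The direction was also turned round in CSTF3 (3.07) and in KMT2C (2.13), whose call in mock cells was lost with quantile scaling. In YWHAZ (1.47) and NBN (1.02) the rise in untreated AI cells was not called in mock cells. PLA2G4A (3.26) and NCOA5 (3.23) were called lower in AI mock cells and were not called in untreated cells, while PLXNA1 (1.99), KLF15 (1.36) and SPACA6 (1.14) were lower in both and farther apart in mock cells. KLF15 is a metabolic transcription factor.

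A negative value means that AI stood lower, relative to AD, in untreated than in mock cells. Among the genes that fell in untreated AI cells it was -2.44 in ADRA2A, -2.08 in ZNF395, -1.81 in PPFIA4, -1.64 in MYOD1 and -1.24 in PLOD1. Among those that rose in AI mock cells it was -2.49 in PEDS1-UBE2V1, -2.47 in MAP3K14, -2.24 in HOXB7, -2.02 in PVT1, -1.38 in OVOL1, -1.08 in FASN and -1.01 in FDXR. In untreated cells MAP3K14 was called the other way, lower in AI (log2 difference -0.71), and OVOL1, FASN and FDXR were called higher. PEDS1-UBE2V1, HOXB7 and PVT1 were not called in untreated cells. PEDS1-UBE2V1 is a readthrough transcript that shares sequence with both its genes, so its value is uncertain. PVT1 is a noncoding RNA next to MYC.

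Outside chromosomes 1 to 22, which the rule for shared peaks leaves out, 25 of 273 replicate 1 peaks (9.16%) met a replicate 2 peak. Of these 25, 8 met the AI EZH2 list.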

How the results depend on the processing

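With a reciprocal overlap of 50% the AD replicates had 750 shared peaks, and with a score of 100 or more in both lists 29. Among those 29, 1 (3.448%) was in both AD H3K27me3 lists, 1 (3.448%) in both AI H3K27me3 lists and 3 (10.34%) in the AI EZH2 list. Of the 27 with start data, 0 lay within 1 kb of a start. Such small counts do not show a change of share. With 1 H3K27me3 list in place of both, the share of all shared peaks was 14.04 to 22.34% in AD and 13.05 to 19.43% in AI. With 50% of the peak's bases required, the AI EZH2 list held 1.915%. Within 5 kb of a start lay 26.02%.

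For genes with a shared peak, leaving out 1 library gave 175 to 210 calls between untreated AI and AD cells (227 with all) and 362 to 371 between mock cells (421 with all). With only the 2 groups in the fit, the untreated count was 74 of 550 (13.9% of all genes were called) and the siEZH2 count in AI cells 34 of 523, of which 26 were higher (10.5% of all genes were called). That siEZH2 count, 3 in all, was 1 with a pseudocount of 1 and 1 without the filter. It was 0 with quantile scaling, 0 with TMM scaling and 0 to 0 with a library left out. The cause was not tested.

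Replicate numbers are shared by the groups, with correlations of their deviations from 0.0136 to 0.701, but nothing in the labels says that a number marks a shared batch. With a replicate block the counts were 234 untreated, 424 mock, 0 for siEZH2 in AD and 3 in AI cells, and 56 for EZH2 RIP, all higher than IgG, where 472 of all genes were higher and 11 lower. Of 385 values of named genes under alternatives, 356 kept their side of the threshold, 29 lost it and 0 reversed. Peak lists without read counts, single lists and 2 samples per group limit every comparison.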

Other observations

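H3K27me3 differed between AI and AD at a few shared peaks. In both AI H3K27me3 lists and in neither AD list stood 10 shared peaks (0.709%), against 0.785% of unshared replicate 1 peaks. In both AD lists and in neither AI list stood 17 (1.21%), against 2.59%.

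Long noncoding RNA genes with a shared peak were mostly silent. Their median was 0.0375 RPKM in untreated AD cells (n = 52) and 13.5% were at 1 RPKM or more, against a median of 0.05 RPKM and 18.1% for 1864 such genes with no replicate 1 peak.

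The summed level of the 10 luminal markers was 3204 and 2656 RPKM in untreated AI cells and 7002 and 5163 RPKM in untreated AD cells. The summed level of 5 mesenchymal markers, most of it FN1, was 18.4 and 21.8 RPKM in AI cells and 122.7 and 153.3 RPKM in AD cells. Of 5 neuroendocrine markers, 2 were at 1 RPKM or more in both AD libraries, with sums of 8.13 and 7.32 RPKM in AI cells and 40.2 and 32.7 RPKM in AD cells, and CHGA was listed at 0 in AD cells. The part of such markers in the differences at genes with shared peaks was not tested.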
